A study of Drosophila melanogaster with 72 samples.

Results

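The effect of N-terminal mutant huntingtin (mHTT) in neurons was measured in fly heads at 7 days after eclosion, the youngest of 3 ages sampled for this model. Members were the 3 mHTT libraries and the 3 control libraries of that age, 6 of the 72 libraries of the series, chosen by their labels. The series profiled poly(A) RNA of Drosophila melanogaster heads in models that express either an N-terminal fragment of huntingtin or the full-length protein, in neurons or in glia. The mHTT flies were elav-GAL4/+; UAS-HTTNT231Q128/+, and the controls were elav-GAL4/+. All 6 groups of the neuronal model therefore carried the driver, and only the mHTT flies carried the UAS insert, so effects of the protein and of the chromosome that carries the insert cannot be told apart here. Flies were raised at 28 °C and each library came from 50 pooled heads. The labels do not say whether replicates came from separate crosses, so p-values measure the spread between these libraries.

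Huntingtin with an expanded polyglutamine tract misfolds and aggregates, and its N-terminal fragments are the form found in neuronal inclusions in Huntington's disease. The elav promoter is active in neurons, which in the fly head include the photoreceptors of the compound eye, the aminergic cells and the peptidergic cells. In whole heads, fewer cells of a type and less RNA per cell cannot be told apart.

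The deposited values are RSEM gene estimates scaled so that the upper quartile of each library is 1000, and they are not per length, so levels are compared between arms and not between genes. The summed value was 18.2 M to 20.7 M per library (M, 1e6), and estimated depth was 39 M to 45.6 M reads, at which 1 read was worth 0.423 to 0.489 units. mHTT library 1 stood apart from the other mHTT libraries. Its summed fat body marker value was 899000, against 1510000 and 1590000 in the other mHTT libraries and 1530000 to 1870000 in controls. Its summed ribosomal protein value was 1280000, against 1690000 and 1810000 in mHTT and 1790000 to 2020000 in controls. The transcript of the huntingtin insert was not analysed here. The fly's own htt was 2180 to 2230 in mHTT and 2220 to 2460 in controls, with a log2 difference of -0.08 ± 0.06 (SE, adjusted p = 0.547). The neuronal marker elav was 1530 to 2300 in mHTT and 1520 to 1870 in controls and did not pass the test (adjusted p = 0.675). The glial marker repo was 994 to 1200 in mHTT and 894 to 1080 in controls, also short of the threshold (adjusted p = 0.403).

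Of 9886 genes tested, 820 (8.29%) were called at an adjusted p under 0.05 with limma, 449 higher (4.54%) and 371 lower (3.75%) in mHTT heads. Most changes were small: the median absolute log2 difference of the called genes was 0.63, and 93 higher and 101 lower genes differed by at least 1. The arms of all 820 called genes did not overlap, as was the case for 2827 of all tested genes (28.6%). The filter asked for at least 10 in 3 of the 6 libraries, and 78 tested genes passed it through 1 arm only. Of these, 26 were called higher and 18 lower. Such genes were tested only because 1 arm is high, so their calls are not free of that choice. Without mHTT library 1, 808 genes were called, 646 of them among the 820. Leaving out control library 2 left 321 calls, mHTT library 2 left 374, control library 1 left 402 and control library 3 left 444. The sample labels carry 2 prefixes whose meaning is not given, and mHTT library 1 and control library 2 share one of them. With the prefix as a covariate 1190 genes were called, and among the 2 mHTT and 2 control libraries of the other prefix 513 were called.

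The largest rises included a neuropeptide, a defence peptide and a heat shock protein, beside several genes with no name beyond their number. Eclosion hormone (Eh), the peptide that triggers ecdysis behaviour at moults, read 225, 315 and 277 in the mHTT libraries and 10.6, 22.6 and 3.85 in controls, a log2 difference of 4.62 ± 0.49 (SE, adjusted p = 0.00169). Every mHTT value of Eh was many times the highest control. CG11893 read 314, 434 and 304 in mHTT and 15, 17.1 and 12 in controls, a log2 difference of 4.48 ± 0.18 (adjusted p = 3.88e-05). CG4962 read 716, 728 and 771 against 159, 132 and 82.8, a log2 difference of 2.61 ± 0.21 (adjusted p = 0.000545). In both genes the arms were far apart and the mHTT libraries lay close together.

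Between CG11893 and CG4962 in the same ranking, CG30059 rose from 7.1 to 8.97 in controls to 86.9 to 128 in mHTT (log2 difference 3.50 ± 0.22, adjusted p = 0.000371). It passed the filter only through the mHTT arm, where it is high. In the current gene models CG30059 overlaps BaraA1 on the opposite strand, and since no source used here says whether counting kept the strands apart, its reads cannot be told from those of BaraA1. The same limit holds for other genes named in this report that overlap a gene on the opposite strand. Among them are IFa, Def, CG3088, Tdc1, Tdc2, Trh, trpl, ninaA and Hsp83. The receptor tyrosine phosphatase gene Ptp52F rose by 1.98 ± 0.23 (adjusted p = 0.00232) and the short-chain dehydrogenase-like CG31809 by 1.94 ± 0.14 (adjusted p = 0.000499). The adenylyl cyclase ACXD, the axonemal-type dynein heavy chain Dhc98D, the serpin Spn47C and the lysyl oxidase lox2 rose by 1.25 to 1.54. CG3088, CG16798 and CG10553 rose by 1.20 to 1.27. CG3088 read 31000 to 40300 in mHTT against 11900 to 16800 in controls.

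**Figure D1:**
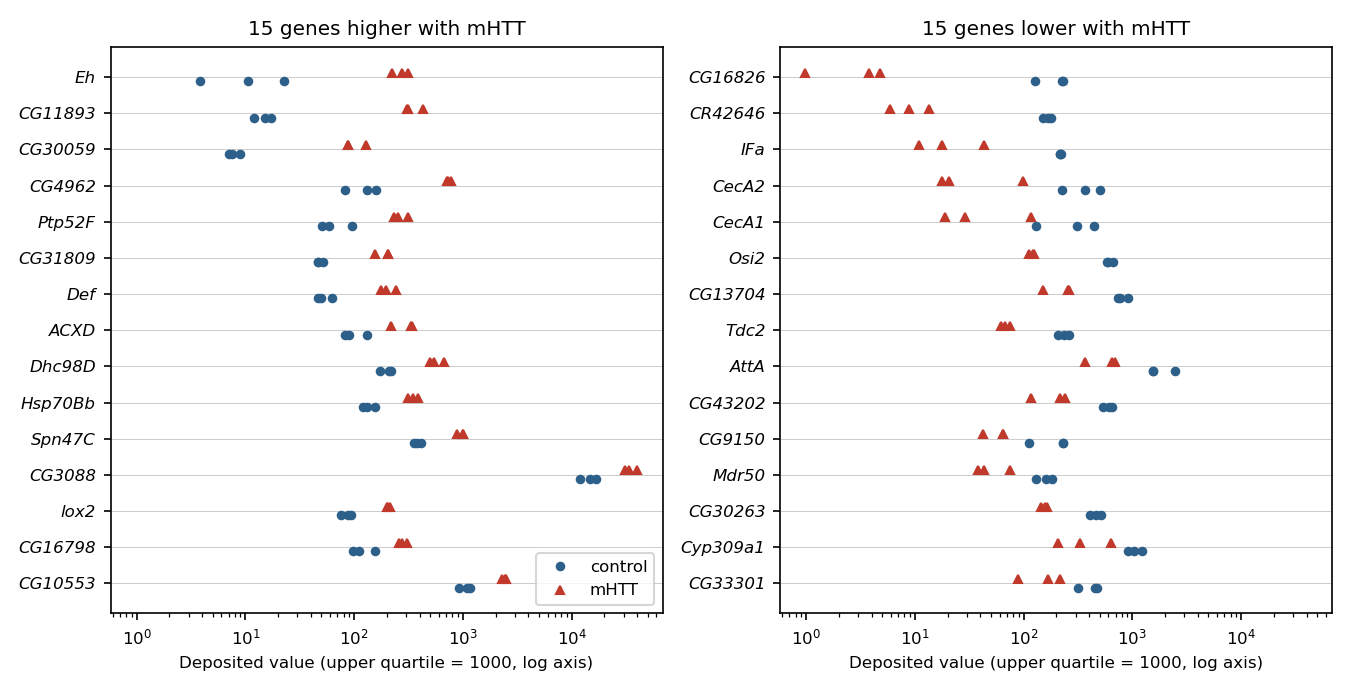
Deposited value of the 15 called genes with the largest rise and the 15 with the largest fall at day 7 whose mean reached 100 in the higher arm, on a log axis. Each row is a gene, each circle a control library and each triangle an mHTT library (3 each). CG30059 and CG16826 passed the filter through 1 arm only. The arms do not overlap in any row; Eh is the top rising gene (225 to 315 against 3.85 to 22.6) and CG16826 the top falling one (0.978 to 4.76 against 127 to 230).

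The largest falls differed in how much transcript was left. CG16826 read 4.76, 0.978 and 3.81 in mHTT and 127, 230 and 223 in controls, a log2 difference of -5.63 ± 0.42 (adjusted p = 0.000499). Its mHTT values correspond to a few reads per library. CG16826 passed the filter only through the control arm, where it is high, so its p-value is not free of that choice. The noncoding RNA CR42646 read 13.4, 5.87 and 8.89 against 152, 179 and 169, a log2 difference of -4.07 ± 0.26 (adjusted p = 0.000371). Osi2, of the Osiris family of insect-specific membrane proteins, read 111, 122 and 124 against 592, 588 and 670, a log2 difference of -2.36 ± 0.09 (adjusted p = 3.04e-05). Libraries within an arm lay close together for Osi2, which had the smallest error of these 3.

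CG13704, now named hoka after a protein of smooth septate junctions, fell by 1.87 ± 0.20 on the log2 scale (adjusted p = 0.00175). CG30263, now named stum after its role in mechanosensory neurons, fell by 1.57 ± 0.10 (adjusted p = 0.000371). The ABC transporter Mdr50 fell by 1.62 ± 0.25 (adjusted p = 0.00742). The falls of CG9150 (-1.68), Cyp309a1 (-1.56) and CG33301 (-1.45) were less stable: the calls of CG9150 and CG33301 were lost without control library 1 or 2 (adjusted p up to 0.06 and 0.102), and that of Cyp309a1 without any 1 control library or without mHTT library 2 (adjusted p up to 0.109).

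Several photoreceptor genes were lower in mHTT heads. Light is detected by rhodopsin, which signals through a Gq protein and phospholipase C to the TRP and TRPL channels of the rhabdomere, the stacked membrane of the photoreceptor. Of 25 phototransduction genes tested, 6 fell and none rose (limma; 14 lower and 1 higher at an unadjusted p under 0.05), against 3.75% of all tested genes called lower, and the median log2 difference of the 25 was -0.31 against 0 for all tested genes. The count depended on the libraries: 11 of the 25 were called lower without mHTT library 1, and 3 without any other 1 library. Quantile normalisation gave 4, with a median of -0.15.

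The channel gene trpl read 19500, 17300 and 19000 in mHTT and 33400, 37700 and 44100 in controls, a log2 difference of -1.04 ± 0.13 (adjusted p = 0.00282). The cyclophilin gene ninaA, whose product carries the main rhodopsin out of the endoplasmic reticulum, read 1640, 1670 and 1520 against 3180, 3150 and 2640, a log2 difference of -0.89 ± 0.09 (adjusted p = 0.00129). The diacylglycerol kinase gene rdgA read 2540, 2280 and 2360 against 3340, 3860 and 4130, a log2 difference of -0.65 ± 0.09 (adjusted p = 0.00517). In all 3 genes the highest mHTT library was well below the lowest control, and each kept its call when any 1 library was left out.

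Ggamma30A, the G protein gamma subunit of the eye, fell by 0.58 ± 0.10 (adjusted p = 0.0143). The lipid enzyme gene CdsA fell by 0.37 ± 0.09 (adjusted p = 0.048) and the phosphatidylinositol transfer gene rdgB by 0.31 ± 0.08 (adjusted p = 0.0447). These 3 calls were less firm. The calls of Ggamma30A and CdsA each held only when mHTT library 1 was the one left out, that of rdgB was lost whichever library was left out, and the adjusted p of the 3 reached 0.18.

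The main rhodopsin gene ninaE, one of the most abundant transcripts of the head, read 446000, 434000 and 419000 in mHTT and 743000, 723000 and 764000 in controls. The arms were far apart and tight, but the log2 difference of -0.78 ± 0.27 did not pass the test in the 6 libraries (adjusted p = 0.135). It passed without mHTT library 1 (adjusted p = 0.0396) and with the spread estimated from 17 libraries of the model (adjusted p = 0.00357). The fit of 17 libraries called 1433 genes at day 7, against 820 in the 6 libraries. The arrestin gene Arr1 read 132000 to 136000 against 197000 to 235000 (log2 difference -0.69 ± 0.18, adjusted p = 0.053), and the phospholipase C gene norpA 11100 to 15000 against 15900 to 19800 (-0.50 ± 0.13, adjusted p = 0.0634). Neither overlapped between arms, and both passed without mHTT library 1 (adjusted p = 0.0197 and 0.00875). Other genes of the cascade had values near 0: the log2 difference was 0.03 ± 0.13 for the channel gene trp, -0.11 ± 0.13 for ninaC, 0.03 ± 0.09 for Rh6 and 0.14 ± 0.08 for Rh5.

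Structural genes of the eye were also looked at. Of 7 such genes 6 fell, beside 3.75% of all tested genes called lower. The list was drawn up after their values had been seen, so that count cannot serve as evidence about eye genes in general. Calphotin (Cpn), a calcium-binding protein of photoreceptors, read 3470, 2900 and 2790 in mHTT and 7040, 6760 and 6000 in controls (log2 difference -1.11 ± 0.10, adjusted p = 0.000912). The gene eys, whose product fills the space between rhabdomeres, read 3080, 2970 and 2710 against 6060, 5800 and 5440 (-0.98 ± 0.08, adjusted p = 0.000543). In both, every mHTT library lay far below the lowest control. The TRP-associated inaF-B fell by 0.72 ± 0.10, and these 3 kept their calls without any 1 library. Smaller falls of chp (-0.51), prom (-0.36) and Calx (-0.34), genes for a rhabdomere adhesion protein, prominin and the sodium-calcium exchanger, did not, with adjusted p up to 0.159.

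**Figure D2:**
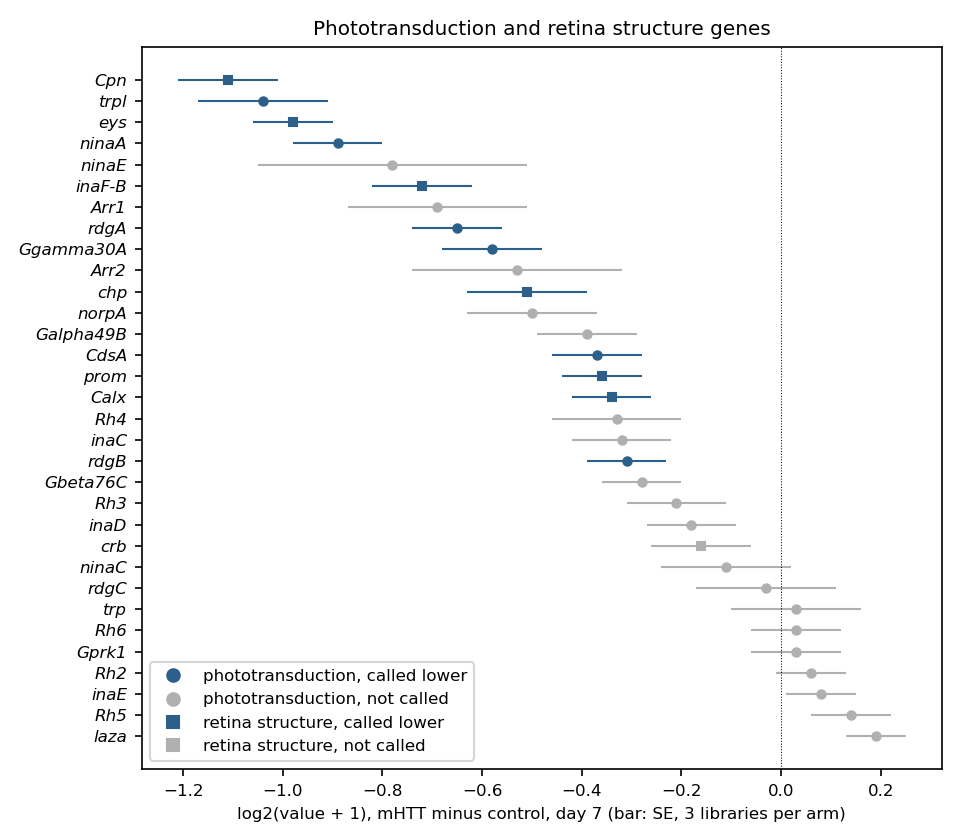
Log2 difference (mHTT minus control, log2(value + 1)) at day 7 of 25 phototransduction genes (circles) and 7 retina structure genes (squares), ordered by size, with bars for 1 SE from 3 libraries per arm. Blue marks genes called lower and grey genes not called; values run from -1.11 (Cpn) to 0.19 (laza), and ninaE at -0.78 has the widest bar.

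The 6 genes of the chromophore pathway, which makes the visual pigment from carotenoids, did not move one way. Of them 2 rose and 1 fell, beside 4.54% and 3.75% of all tested genes. The scavenger receptor gene ninaD rose by 1.07 ± 0.13 (adjusted p = 0.00259) and the pigment-cell dehydrogenase gene Pdh by 0.46 ± 0.09 (adjusted p = 0.021), while the oxidoreductase gene ninaG fell by 0.73 ± 0.10 (adjusted p = 0.00498). The call of Pdh was kept only when mHTT library 1 was the one left out.

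Neuropeptide genes changed in both directions. Of 36 precursor genes tested, 3 rose and 6 fell, against 4.54% and 3.75% of all genes, and the median of the 36 was -0.06. SIFamide (IFa in the files), made by a small group of cells of the pars intercerebralis, read 17.7, 10.8 and 42.8 in mHTT and 214, 218 and 222 in controls, a log2 difference of -3.36 ± 0.41 (adjusted p = 0.0028). mHTT library 3 was the highest of its arm and still far below the controls. The capability gene capa, whose peptides act on the renal tubules, read 416, 465 and 447 against 826, 865 and 807, a log2 difference of -0.91 ± 0.07 (adjusted p = 0.000499). The libraries of each arm lay close together and the arms were far apart.

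The myoinhibitory peptide gene Mip fell by 0.49 ± 0.07 (adjusted p = 0.00664), allatostatin A (Ast in the files) by 0.42 ± 0.06 (adjusted p = 0.00713) and the insulin-like peptide gene Ilp3 by 0.42 ± 0.07 (adjusted p = 0.0112). Crustacean cardioactive peptide (Ccap) was low in all libraries, at 4.23 to 13.4 in mHTT against 29.4 to 46.9 in controls (log2 difference -1.92 ± 0.40, adjusted p = 0.0265). Beside Eh, tachykinin (Tk) rose by 0.44 ± 0.07 (adjusted p = 0.00652) and corazonin (Crz) by 0.49 ± 0.09 (adjusted p = 0.0138). The calls of Ccap, Crz and Ilp3 depended on the libraries used. The call of Ccap was lost without any 1 control library or without mHTT library 2, that of Crz without mHTT library 2 or control library 1 or 3, and that of Ilp3 without mHTT library 2 or control library 2 (adjusted p up to 0.116). The clock neuron peptide gene Pdf did not pass the test, with 2230 to 2400 in mHTT and 1740 to 2140 in controls.

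Genes of the biogenic amine neurons changed gene by gene. Octopamine is made from tyrosine by tyrosine decarboxylase and tyramine beta-hydroxylase, and serotonin from tryptophan by tryptophan hydroxylase. Tdc2, the neuronal tyrosine decarboxylase, read 61.5, 74.9 and 67.3 in mHTT and 208, 236 and 261 in controls, a log2 difference of -1.78 ± 0.12 (adjusted p = 0.000471). Its partner in octopamine synthesis, the hydroxylase gene Tbh, read 391, 355 and 329 against 488, 551 and 593, a log2 difference of -0.60 ± 0.10 (adjusted p = 0.00953). The neuronal tryptophan hydroxylase gene Trh read 257, 207 and 222 against 484, 523 and 483, a log2 difference of -1.12 ± 0.09 (adjusted p = 0.000634). All 3 were lower in each mHTT library than in any control and kept their calls without any 1 library.

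On a list of 11 amine enzyme and transporter genes drawn up after the values had been seen, 4 fell and 2 rose, where 3.75% and 4.54% of all tested genes did so. The fourth gene that fell was the dopamine transporter DAT (-0.43 ± 0.08, adjusted p = 0.0173). Those that rose were ple, the tyrosine hydroxylase of dopamine synthesis (0.50 ± 0.10, adjusted p = 0.0199), and Tdc1, the decarboxylase found mainly outside the nervous system (0.57 ± 0.07, adjusted p = 0.00379). The calls of DAT and ple were lost without control library 2 or 3. That of DAT was also lost without mHTT library 2, and that of ple without mHTT library 3 or control library 1 (adjusted p up to 0.0804). The vesicular monoamine transporter gene Vmat did not pass the test, at 4560 to 5520 in mHTT and 5190 to 6130 in controls.

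Of 43 general synaptic genes tested, 2 rose (Nlg1 and ple) and 4 fell (Tdc2, Tbh, DAT and the potassium channel Sh), against 8.29% of all tested genes called in either direction, and the median log2 difference was 0.03. Of these 6, all but Nlg1 and Sh are the amine genes described above. The call of Sh was lost without mHTT library 2 or 3 or control library 2 or 3 (adjusted p up to 0.105). The neuroligin gene Nlg1 rose by 0.62 ± 0.08 (adjusted p = 0.00285). Of 35 neurotransmitter receptor genes 1 rose and 1 fell, beside 4.54% and 3.75% of all tested genes. The serotonin receptor 5-HT2 rose by 0.37 ± 0.08 and the dopamine receptor DopR2 fell by 0.27 ± 0.06, both at adjusted p above 0.02. Both were called without mHTT library 1 only, among the 6 libraries left out in turn. None of 9 general neuron markers was called by limma (1 at an unadjusted p under 0.05), with a median of 0.05.

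**Figure D3:**
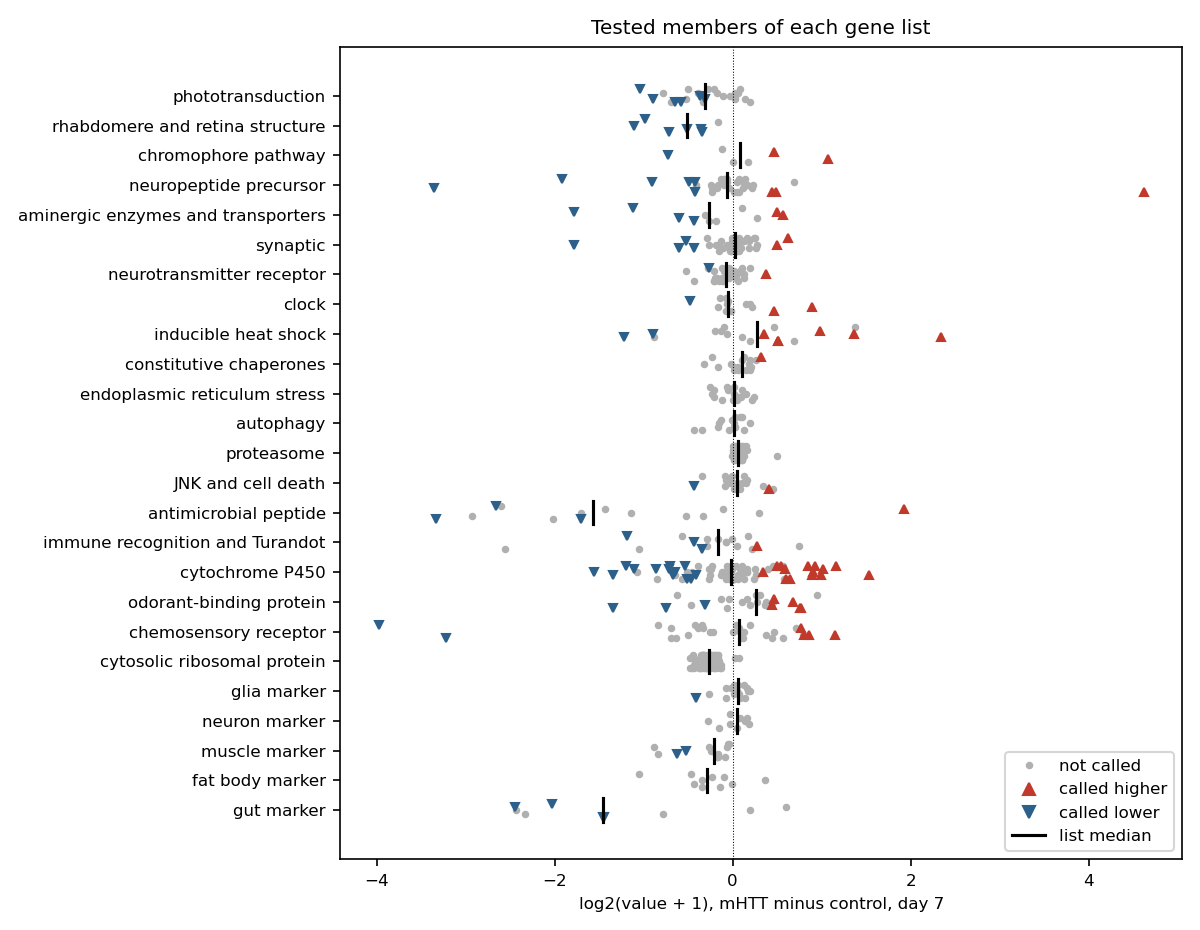
Log2 difference at day 7 of every tested member of 25 gene lists, with 1 symbol per gene. Grey circles were not called, red triangles were called higher, blue triangles were called lower, and the black bar is the list median. The retina structure and amine lists were drawn up after the values had been seen. Phototransduction (6 of 25 lower), retina structure (6 of 7 lower), antimicrobial peptides (median -1.57) and cytochrome P450 genes (14 higher, 13 lower) spread away from 0, while proteasome, autophagy and endoplasmic reticulum stress genes do not include a called gene.

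Several inducible heat shock genes changed. These chaperones are induced by misfolded protein, and Hsp70 with its J-domain partner DnaJ-1 is known to reduce polyglutamine toxicity in flies. Of 18 tested, 6 rose and 2 fell, against 4.54% and 3.75% of all tested genes, with a median of 0.27. With 1 library left out, 2 to 6 were called higher and 1 or 2 lower, the fewest (2 and 1) without mHTT library 3, and 3 and 1 without mHTT library 2 or control library 1 or 2. DnaJ-1 read 2200, 2030 and 2000 in mHTT and 1470, 1480 and 1410 in controls, a log2 difference of 0.51 ± 0.06 (adjusted p = 0.00347). Hsp70Bb read 313, 345 and 383 against 130, 156 and 120, a log2 difference of 1.36 ± 0.12 (adjusted p = 0.000868). Hsp83, the fly Hsp90, read 13800, 12200 and 14900 against 9910, 9490 and 9220, a log2 difference of 0.51 ± 0.09 (adjusted p = 0.0161). In all 3 the mHTT libraries were above every control.

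Hsp70Bbb (0.98 ± 0.18), Hsp70Ba (2.34 ± 0.47) and Hsp23 (0.35 ± 0.08) also rose. The Hsp70 genes are near-identical copies whose reads may have been split among them, so the value of a single copy is uncertain, and Hsp70Aa (1.37 ± 0.41, adjusted p = 0.0901) and Hsp70Ab (0.69 ± 0.18, adjusted p = 0.0587) did not pass. Of the small heat shock genes, the mitochondrial Hsp22 read 397, 368 and 340 in mHTT and 1220, 1040 and 494 in controls (log2 difference -1.22 ± 0.29, adjusted p = 0.0422). Hsp67Bc fell from 189 to 238 in controls to 109 to 124 (-0.89 ± 0.11, adjusted p = 0.00366). DnaJ-1, Hsp70Bb and Hsp67Bc kept their calls without any 1 library. The others lost them without at least 1, with adjusted p up to 0.151: Hsp70Ba without control library 1 (it was tested only in the 3 fits that left out a control, since no control reached the filter), Hsp83, Hsp23, Hsp70Bbb and Hsp22 without several libraries, in each case including control library 2.

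Few other protein quality genes were called, beside 8.29% of all tested genes called in either direction. None of 17 endoplasmic reticulum stress genes, 17 autophagy genes or 32 proteasome genes was called by limma, with 3, 2 and 1 at an unadjusted p under 0.05 and medians of 0.01, 0.01 and 0.06. Of 17 constitutive chaperones only the chaperonin subunit CG8258 rose. Of 20 JNK and cell death genes the matrix metalloprotease Mmp1 rose by 0.41 and the caspase Dcp-1 fell by 0.44 on the log2 scale. The calls of CG8258, Mmp1 and Dcp-1 were each lost without control library 1 or 2 (adjusted p up to 0.127).

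Antimicrobial peptide genes, the secreted effectors of the Toll and Imd pathways, read mostly lower (12 of 14) but varied widely among the mHTT libraries. Of the 14 tested, 3 fell and 1 rose, against 3.75% and 4.54% of all tested genes, and the median log2 difference was -1.57. Without mHTT library 3, 9 were called lower with a median of -2.02, and 1 was called lower without mHTT library 2 or control library 2 or 3. The calls also depended on the fit. With the spread estimated from 17 libraries of the model, limma called 1 higher and 0 lower, although it called 1433 genes in all. With all 18 libraries it called 0 higher and 0 lower. A replicate block gave 1 higher and 4 lower, and the libraries with label prefix H57779 alone gave 2 and 1. Attacin A (AttA) read 651, 370 and 694 in mHTT and 1560, 1560 and 2450 in controls, a log2 difference of -1.71 ± 0.26 (adjusted p = 0.00724). Cecropin A2 (CecA2) read 17.7, 20.5 and 98.7 against 223, 364 and 504, a log2 difference of -3.33 ± 0.60 (adjusted p = 0.0143). Cecropin A1 read 29, 19.1 and 118 against 130, 310 and 441 (CecA1, -2.66 ± 0.66, adjusted p = 0.048). mHTT library 3 was the highest of its arm in all 3 and nearly reached the lowest control in CecA1. The call of CecA1 was lost without any 1 library other than mHTT library 3, and that of CecA2 without mHTT library 2 or control library 2 or 3 (adjusted p up to 0.163). These peptides have close copies, so single values are uncertain.

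Attacin C (AttC) showed the same split among the mHTT libraries, with 1130, 969 and 5030 against 4760, 6080 and 6640, and the arms overlapped (log2 difference -1.71 ± 0.55, adjusted p = 0.105). Diptericin B (DptB) likewise read 469, 250 and 3040 against 2190, 3250 and 3340 and did not pass (adjusted p = 0.173). Defensin (Def) went the other way, with 195, 177 and 245 against 49.2, 46.9 and 63, a log2 difference of 1.93 ± 0.16 (adjusted p = 0.000634). Its arms were well apart. BomT1 (CG43202 in the files), a secreted immune-induced peptide gene, fell by 1.71 ± 0.24 (adjusted p = 0.00575). Among 17 recognition and Turandot genes, PGRP-LE rose, and PGRP-LC, PGRP-LF and PGRP-SB1 fell, beside 4.54% and 3.75% of all tested genes. PGRP-SB1 read 1960, 2170 and 3680 against 6190, 5160 and 5790 (log2 difference -1.19). None of these 4 kept its call without each library in turn (adjusted p up to 0.167). The stress gene TotM read 9980 in control library 1 and 397 to 1050 in the other 5 libraries, and was not called.

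Cytochrome P450 genes, which oxidise hormones and foreign compounds, changed often and in both directions. Of 76 tested, 14 rose and 13 fell, that is 27 of 76 against 8.29% of all tested genes, and the median was -0.02. Leaving out 1 library gave 8 to 14 higher and 5 to 16 lower. There were 8 and 5 without mHTT library 2, 9 and 5 without control library 2, 13 and 6 without control library 1, 10 and 8 without control library 3, and 10 and 16 without mHTT library 3. Of the 27, 12 kept their calls without each library in turn. Cyp6a2 read 1230, 1310 and 1090 in mHTT and 587, 543 and 652 in controls (log2 difference 1.02 ± 0.09, adjusted p = 0.000907). Cyp6a20 read 2850, 2630 and 2600 against 1530, 1450 and 1500 (0.85 ± 0.06, adjusted p = 0.000499). Cyp6a17 had a mean of 315 ± 83 (SD) against 786 ± 73.6 (-1.34 ± 0.17, adjusted p = 0.00359). The Cyp6a subfamily thus held genes that moved in opposite directions. The close copies Cyp12d1-d and Cyp12d1-p were called in opposite directions (0.64 and -0.67), and reads shared between them cannot be assigned with certainty.

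Chemosensory genes that are read in few cells of the head also changed. The acid-sensing ionotropic receptor gene Ir75a read 2.6, 2.94 and 7.2 in mHTT and 54.1, 88 and 92.4 in controls, a log2 difference of -3.98 ± 0.37 (adjusted p = 0.000978). Its neighbour Ir75b read 4.33, 2.45 and 2.96 against 27.5, 36.6 and 54.4, a log2 difference of -3.22 ± 0.34 (adjusted p = 0.00175). Both were close to the worth of a few reads in mHTT. Ir76a rose by 0.80 ± 0.10 (adjusted p = 0.0036). Both passed the filter only through the control arm, where they are high, and were not tested when a control was left out. Of 31 chemosensory receptor genes that passed the filter, of 180 in the files, 4 passed through the control arm alone. Rises were called for 4 genes and falls for Ir75a and Ir75b, where 8.29% of all tested genes were called in either direction. The other rises were Gr64c, Gr64f and Or1a, each lost without 5 of the 6 libraries in turn. Among 23 odorant-binding protein genes 5 rose and 3 fell, against 4.54% and 3.75% of all tested genes. With 1 library left out, 2 to 7 were called higher and 1 to 3 lower, the fewest (2 and 1) without control library 2 and 3 and 1 without mHTT library 2 or 3 or control library 3, and 3 of the 8 (Obp56a, Obp56e and Obp56h) kept their calls throughout. Obp56e read 32300, 33300 and 30200 against 20500, 19200 and 20100 (0.68 ± 0.09, adjusted p = 0.00506), while Obp56a read 867, 842 and 817 against 1520, 1460 and 1280 (-0.75 ± 0.08, adjusted p = 0.00163).

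Markers of other tissues were compared for the same libraries, and their part in the results above was not tested. Of all 9886 tested genes, 8.29% were called in either direction and 3.75% were called lower, and 4931 had a negative log2 difference. Of 16 glia markers only the transporter Eaat2 was called, lower by 0.41 on the log2 scale. All 14 muscle markers had negative log2 differences, with 2 called (Mlc2 and TpnC41C), and their summed value was 79200 to 90000 in mHTT against 95000 to 97800 in controls. The calls of Eaat2, Mlc2 and TpnC41C were each lost without control library 1 or 2, among others (adjusted p up to 0.114). Of 9 gut markers that passed the filter, of 27 in the files, 4 digestive protease genes were called lower (alphaTry, betaTry, Jon65Aiii and Jon65Aiv). Of the 9, 3 passed only through the control arm, betaTry among them. The call of Jon65Aiii was lost without control library 2 (adjusted p = 0.0621), and that of Jon65Aiv without any 1 control library or mHTT library 2 (adjusted p up to 0.158). The summed gut value was 1220 to 2910 in mHTT and 2330 to 3080 in controls, and Jon99Cii was at 0 in mHTT library 1. By limma, none of 10 fat body markers was called (0 at an unadjusted p under 0.05), with a median of -0.29 that became 0.01 without mHTT library 1. Likewise, none of 9 haemocyte markers was called (1 at an unadjusted p under 0.05). Of 84 ribosomal protein genes none was called (5 at an unadjusted p under 0.05) although 82 had a negative difference, with a median of -0.26 that became -0.11 without mHTT library 1.

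The day 7 calls were then read in the libraries of days 9 and 11 of the same model, which have their own controls. This fit held 17 libraries and left out the second control library of day 11, which carries a label prefix of its own. Its estimate of spread was shared over the ages and includes the 6 libraries of day 7, so the overlaps below are not fully independent of the day 7 calls. At day 9, where 12.3% of 10127 genes were called higher and 11.5% lower, 331 of the 449 higher genes (73.7%) and 290 of the 371 lower genes (78.2%) were called in the same direction. These overlaps made up 26.5% and 24.9% of the day 9 lists. At day 11, where 8.28% and 10.3% of genes were called, 237 (52.8%) and 230 (62%) were called in the same direction, or 28.2% and 22% of the day 11 lists. With all 18 libraries these counts fell to 117 and 118 at day 9 (1.79% and 2.53% of all genes called) and 128 and 138 at day 11 (3.21% and 4.57%). Each of these ages also gave a call for Tdc2 (-1.74 and -2.15, in that order), Trh (-1.29 and -1.49), IFa (-3.25 and -3.98), trpl (-0.77 and -1.34) and CG11893 (4.54 and 4.71).

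Some genes called at day 7 were not called at one or both later ages. Def, called at day 7 (1.93), was 0.32 at day 9 (adjusted p = 0.42) and was called again at day 11 (1.02, adjusted p = 0.0311). AttA was -0.45 and 1.34, neither called. Tdc1 was -0.02 and -0.12 and ple 0.13 and 0.16, none called. In the test of the difference between ages, only Tdc1 passed among these 4, between days 11 and 7 (-0.69, adjusted p = 0.01). The adjusted p of the other 3 was at least 0.118 for either age.

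The test of the difference between ages called 15 of 10127 genes between days 9 and 7 (0.148%), 4 of them among the 820. Since the test includes the 6 libraries that gave the 820 calls, this overlap is not independent. Of the 15, 6 were heat shock genes. DnaJ-1 was 5030 ± 367 (SD) in mHTT and 10100 ± 1490 in controls at day 9, lower with mHTT where it had been higher at day 7 (change of the log2 difference -1.52 ± 0.13, adjusted p = 6.03e-05). Hsp83 was 23100 ± 1150 in mHTT and 32000 ± 4650 in controls at day 9, and Hsp70Bbb was 178 ± 17.4 and 270 ± 64.8. Control levels of these 3 genes were several times those at day 7, while the mHTT levels rose less, so the sign of the difference turned. Among the 18 heat shock genes, the fit of 17 libraries called 1 higher and 13 lower on day 9, beside 12.3% and 11.5% of all genes. On day 11 it called 6 higher and 1 lower, beside 8.28% and 10.3%. Several of the 18 are near-identical Hsp70 copies, so these counts are not of separate results. The count of 15 ranged from 2 to 186 when 1 library was left out, with 186 without mHTT library 1 of day 7 and 2 without control library 2 of day 7, control library 2 of day 9 or mHTT library 3 of day 9. With all 18 libraries 1 gene was called.

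**Figure D4:**
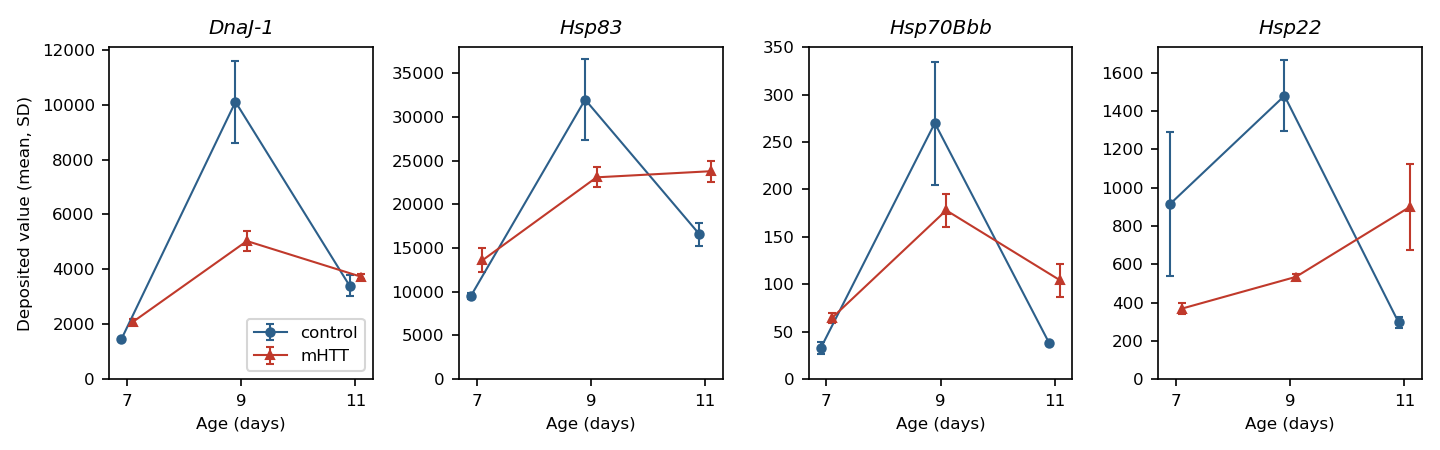
Deposited value (mean, bars 1 SD) of 4 heat shock genes in neuronal mHTT and control heads at 7, 9 and 11 days, with 3 libraries per group except controls at day 11 (2). mHTT lies above control at day 7 for DnaJ-1, Hsp83 and Hsp70Bbb and below it at day 9; Hsp22 is lower in mHTT at days 7 and 9 and higher at day 11.

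Between days 11 and 7, 255 genes (2.52%) differed, 84 of them among the 820. Here too the 6 libraries that gave the 820 calls are part of the test, so the overlap is not independent. With the second control library of day 11 included, limma called 0 genes (791 at an unadjusted p under 0.05). Hsp22 turned from -1.22 at day 7 to 1.57 at day 11 (difference 2.78 ± 0.37, adjusted p = 0.00225). Leaving out 1 library gave 33 to 286 genes, with 33 without control library 1 of day 11, after which a single control of that age remained and was assumed to vary like the other groups. The count was also below 170 without control library 1 (105) or 2 (126) of day 7, or without mHTT library 1 of day 11 (116).

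The same fragment expressed in glia with repo-GAL4, also at day 7 and with its own controls, gave a different set of changes. Of the 449 genes higher in the neuronal model, 52 (11.6%) were called higher and 63 (14%) lower in the glial model, where 7.03% and 5.7% of 10188 genes were called. Of the 371 lower genes, 47 (12.7%) were called lower and 58 (15.6%) higher. Those called in the same direction made up 7.26% and 8.09% of the glial lists. The glial calls came from a fit of 12 libraries that shared its spread with the 6 neuronal ones, so these overlaps are not fully independent either. The test of the difference between the models called 919 genes (9.02%), among them 360 of the 820 (43.9%). That test includes the 6 neuronal libraries that gave the 820 calls. The larger share among the 820 is therefore partly set by how they were chosen, and it is no separate evidence.

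Some photoreceptor genes showed the contrast. In the glial model, 11 of the phototransduction genes were called higher and 1 lower, with a median log2 difference of 0.41. Of the retina structure genes 1 was called higher and 0 lower, with a median of 0.12. Among all genes tested there, 7.03% were called higher and 5.7% lower. trpl was 67100 ± 5320 (SD) in glial mHTT heads and 41900 ± 2030 in their controls, and Cpn was 10600 ± 273 and 6620 ± 539, both higher with mHTT where the neuronal model was lower. In the limma test of the difference between models, trpl (-1.72, adjusted p = 0.000103) and Cpn (-1.80, adjusted p = 1.89e-05) passed. Both were picked from the day 7 calls, and this test includes the same 6 neuronal libraries, so it is no separate evidence. CG16826 and Osi2 fell in both models: CG16826 was 7.02 ± 2.68 against 282 ± 28.4 in glia, and Osi2 162 ± 22.1 against 331 ± 18. Hsp70Bb rose in both, with 370 ± 24.7 against 142 ± 18.3 in glia.

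For several of the largest neuronal changes the control levels of the 2 drivers were far apart. Eh was 421 ± 63.1 in glial controls and 12.3 ± 9.48 in neuronal controls, so that the neuronal mHTT heads (272 ± 45.2) lay between them. CG30059 was 133 ± 16.2 in glial controls, and CR42646 was 7.02 ± 2.80 in glial controls and 100 ± 15.5 in glial mHTT heads. CG13704 was 98.2 ± 24.6 in glial controls. The lines differ in driver chromosome as well as in the cells that express mHTT, and the share of each in these levels was not tested.

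**Figure D5:**
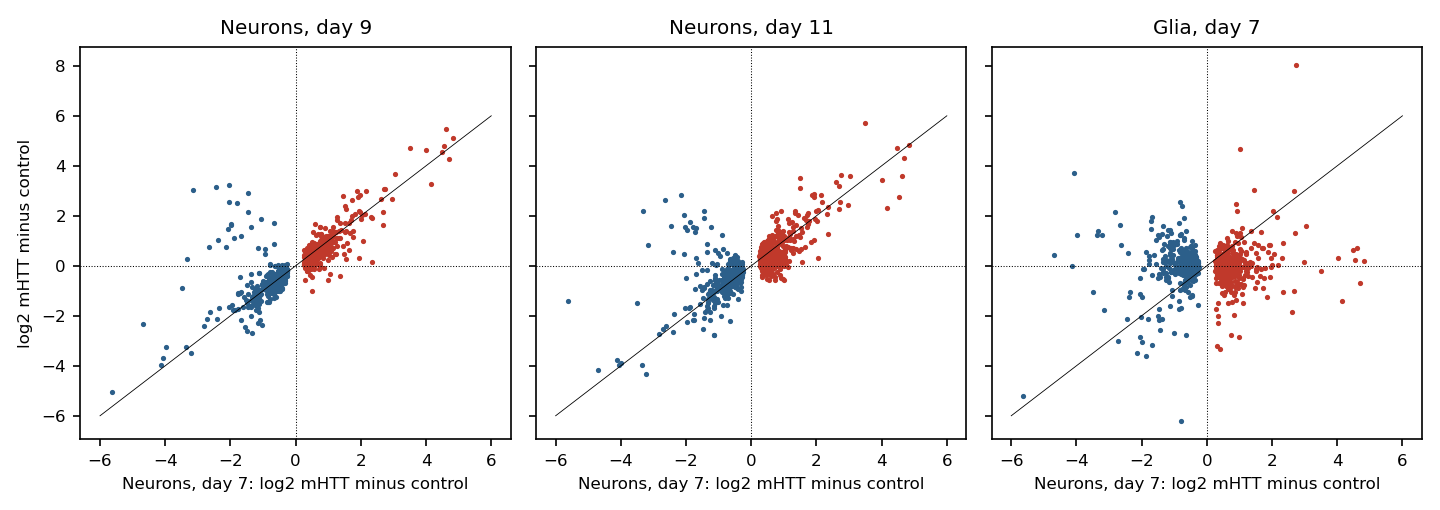
Log2 difference (mHTT minus control) of the 820 genes called in neurons at day 7 (x axis; red higher, blue lower) against the difference of the same genes at day 9, at day 11 and in the glial model at day 7 (y axes), with 1 point per gene and a line of equal values. Points follow the line at day 9 (95.8% of the higher and 91.6% of the lower genes keep their sign) and scatter around 0 in glia (43.9% and 43.1%).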

How the data were processed

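The deposited table held 1 signal value for each of 13557 genes and 72 libraries. Per the file name and the submitters' processing notes, the authors used CASAVA 1.8.2, Bowtie 0.12.0 and RSEM 1.1.19 with genome build dm3, and DESeq2. The upper quartile of every library was 1000. Annotation and strand use in counting are not given in the sources used here, although the labels name a stranded kit. Low values fell on whole multiples of 1 step in 93% to 94.4% of cases (tolerance 0.02 steps), too few to recover reads, so a count test was not used and depth is an estimate that covers counting error only.

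Tests used limma 3.58.1 (R 4.3.3, trended eBayes) on log2(value + 1), a scale that understates changes of low genes, with Benjamini-Hochberg adjustment over all tested genes. Genes with at least 10 in 3 or more of the 6 libraries were tested. Differences between ages used 17 libraries and those between drivers 12. No 2 libraries agreed within sampling noise. The procedure was tested on simulated data.

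Named genes were the 15 largest rises and 15 largest falls among called genes whose higher arm averaged 100 or more, called members of gene lists, and check genes. The members, lists and tests were chosen with earlier results of these data known. Of 467 list entries 1 was not found. Lists of amine, retina structure, cuticle, chitin and Hox genes were added after the values had been seen, and uncalled genes given for contrast were chosen the same way. Alternatives changed the pseudocount, filter, scaling, covariates and libraries. mHTT library 1, 2 or 3 and control library 1, 2 or 3 follow the replicate numbers of the labels.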

Additional observations from a re-analysis of the deposited data

Results flagged for a closer look

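These genes had a difference between mHTT and control that itself differed between ages or between drivers. They were taken from the genes with the largest day 7 changes and from the heat shock list. Because the tests include the 6 libraries that gave the day 7 calls, they are no separate evidence. Between days 9 and 7 the log2 difference moved down for Hsp70Ab by -2.99, Hsp70Bc by -1.84, Hsp26 by -1.75, Hsp70Bbb by -1.55, DnaJ-1 by -1.52 and Hsp83 by -0.97. Hsp70Ab and DnaJ-1 kept this call without any 1 library. The other 4 did not, with adjusted p up to 0.15. Between days 11 and 7 it moved by 2.78 for Hsp22 and by -0.48 for CG10553, the latter lost without 14 of the 17 libraries in turn.

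Between the neuronal and the glial model at day 7, the log2 difference was higher in neurons for CG4962 by 4.46, Eh by 3.92, CG11893 by 3.83 and CG30059 by 3.71. It was also higher for CG31809 by 2.38, Ptp52F by 2.02, Dhc98D by 1.68, lox2 by 1.66, ACXD by 1.59, CG16798 by 1.48, Spn47C by 1.16 and CG10553 by 1.14, and for the heat shock genes Hsp83 by 0.64 and DnaJ-1 by 0.59. The call of Hsp83 was lost in 10 of 12 fits that left out a library (adjusted p up to 0.0892). It was lower in neurons for CR42646 (-7.78), CecA2 (-4.71), IFa (-4.58), CecA1 (-4.30), CG9150 (-3.62), AttA (-3.49) and CG43202 (-3.20). Those of CecA1 and CG43202 were each lost in 6 of the 12 fits (adjusted p up to 0.0743 and 0.0717). Smaller gaps in that direction were those of Cyp309a1 (-2.60), CG13704 (-2.43), Hsp22 (-2.43), Mdr50 (-2.05), Tdc2 (-1.85), CG30263 (-1.66) and Osi2 (-1.33).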

How the results depend on the processing

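The 820 day 7 calls became 291 with a replicate block, 513 within 1 label prefix, 201 with all 18 libraries of the model, 432 with all 72 and 1433 with 17 libraries, and 321 to 808 with 1 library left out. Same-numbered libraries of the 2 arms had correlations of -0.31, -0.32 and -0.22 between their deviations, and no library correlated best with its own number. With 3 libraries per arm this cannot settle whether same-numbered libraries were collected together, which the labels do not say. Pseudocounts, scaling and filters gave 574 to 839. The 15 genes between days 9 and 7 became 9 without a filter, 37 with the prefix as covariate, 1 with 18 libraries and 2 to 186 with 1 library left out (9 without control library 1 or 3 or mHTT library 3 of day 11, 7 without control library 3 of day 9, 6 without mHTT library 3 of day 7 or 1 of day 9, 3 without mHTT library 2 or control library 3 of day 7). The 255 between days 11 and 7 became 169 without a filter, 164 with the block, 0 with 18 libraries (limma; 791 at an unadjusted p under 0.05) and 33 to 286 with 1 left out. The 919 between drivers ranged from 638 to 1543 with 1 library left out, 1543 without glial mHTT library 1, and 766 to 1005 otherwise. Of 149 called genes examined, 141 were tested in all 6 fits that left out a library, and 69 of these kept the call in each. The other 8 passed the filter through 1 arm only and were tested in 3 of these fits, where 7 kept it (CG30059, CG16826, Ir75a, Ir75b, betaTry, Abd-B and Cpr62Ba). The sign changed for 0 of the 149. With the replicate block, higher and lower counts were 2 and 2 for heat shock, 0 and 3 for phototransduction, 9 and 5 for P450, 1 and 2 for odorant-binding, 1 and 3 for neuropeptide and 3 and 0 for cuticle genes. With 18 libraries the heat shock counts were 0 and 1. Among uncalled check genes, the sign turned without mHTT library 1 for elav (-0.04, range with 1 library left out -0.04 to 0.25), roX1 (-0.07, range -0.07 to 0.24) and Yp2 (0.04, range -0.38 to 0.04), and with quantile scaling for Yp1 (0.22) and Yp2 (0.07). The cause of these changes was not tested. The number of libraries per arm limits the small differences, and the lowest values rest on a few reads.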

Other observations

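Several cuticle genes were higher in mHTT heads at day 7. The list was drawn up after the values had been seen. Of 29 structural cuticle protein genes that passed the filter, of 100 in the files, 11 rose and none fell (limma; 15 higher and 0 lower at an unadjusted p under 0.05), against 4.54% and 3.75% of all tested genes, with a median log2 difference of 0.35. Of the 29, 1 (Cpr62Ba) passed only through the mHTT arm. Cpr49Ae read 793, 743 and 634 in mHTT and 318, 326 and 326 in controls (log2 difference 1.15 ± 0.09, adjusted p = 0.000529). TwdlT read 206, 209 and 185 against 105, 82.1 and 91 (1.11 ± 0.12, adjusted p = 0.00163). Both had arms well apart. With 1 library left out, 4 to 7 were called higher, with 4 of 28 without mHTT library 2, 6 of 27 without mHTT library 1 or 3, and 6 without control library 1 or 2. Of the 11, Cpr49Ae, Cpr72Ec and TwdlT kept their calls without each library in turn.

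Of 23 chitin genes 7 rose and none fell (limma; 11 and 1 at an unadjusted p under 0.05), beside 4.54% and 3.75% of all tested genes, with a median of 0.47. The chitin list was also drawn up after the values had been seen, so its count cannot serve as evidence about chitin genes in general. The chitin deacetylase genes serp (1.19 ± 0.12) and verm (0.74 ± 0.08), the chitinase gene Cht7 (0.98 ± 0.14) and the chitin-binding genes Gasp (0.91 ± 0.09) and obst-A kept their calls without each library in turn. In the glial model Cpr49Ae and TwdlT were lower with mHTT, by -0.78 and -0.85.

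Hox genes set segment identity. Of 6 that passed the filter 3 rose, beside 4.54% of all tested genes called higher. This list too was drawn up after the values had been seen, so the count cannot serve as evidence about Hox genes in general. Abd-B, the gene of the most posterior segments, read 24.2, 12.2 and 12.7 in mHTT against 0.483, 2.71 and 0.481 in controls (adjusted p = 0.0139). Control values correspond to a few reads or fewer, and Abd-B passed the filter only through the mHTT arm. The proboscis genes pb and Scr rose by 0.64 ± 0.12 and 0.50 ± 0.11. The call of pb was lost without control library 1 or 2, and that of Scr without mHTT library 3 or any 1 control library (adjusted p up to 0.106).

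Of 13 clock genes 2 rose and 1 fell, beside 4.54% and 3.75% of all tested genes. Clk rose by 0.47 ± 0.08 and the output gene to (takeout) by 0.89 ± 0.09, and per fell by 0.48 ± 0.12 on the log2 scale (adjusted p = 0.046). The call of per was kept only when mHTT library 2 was the one left out. The hour of collection is not given in the labels. The eye colour gene w, a usual marker of inserted transgenes, read 480 to 515 in mHTT and 394 to 432 in controls (0.28 ± 0.07, adjusted p = 0.0485), a call lost without any 1 library. Yp1, Yp2 and Yp3, yolk protein genes that are markers of female flies and fat body, were not called, nor was the male dosage compensation RNA roX1.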
